A study of Brachypodium distachyon with 6 samples.

Results

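Lignin is the phenolic polymer that stiffens and seals secondary cell walls, and in roots it is laid down in xylem vessels and in barrier cell layers. It is built from phenylalanine through the phenylpropanoid pathway, in which hydroxylases, methyltransferases and reductases make the monolignols, the alcohols that are then exported to the wall. In grasses part of the monolignols is acylated with p-coumarate before export, and in the wall laccases and peroxidases oxidise monolignols to the radicals that couple into the polymer.

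The genes described here are 7 enzymes of this pathway, not all of its steps, and 3 laccases, taken as a list of 10 identifiers of *Brachypodium distachyon*. The enzyme names are those given with the list, and the identifiers were looked up in the deposited table of 19538 genes. It holds 9 of the 10, which are 6 enzymes of monolignol synthesis and acylation and the 3 laccases. The identifier listed for cinnamyl alcohol dehydrogenase (CAD), which reduces the aldehydes to monolignols, was Bradi3g17920, and it was not analysed here because it has no row in the table.

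Root RNA of the inbred line Bd21 was sequenced as 3 libraries of intact plants (treatment "none (control)") and 3 libraries of pruned plants (treatment "mowed"). Seedlings were 2 weeks old when part of the plants of each box had their shoots cut with scissors to a stub, while the others in that box were left intact. All plants grew on Murashige and Skoog agar with sucrose, and roots were collected 2 days after the cut. Values are RPM, the reads of a gene per 1000000 reads counted on the 19538 genes of the table in its library. These genes held 17278649 to 28420464 reads per library. For pruned replicates 2 and 3 the R1 reads alone were used, whereas both mates were used for the remaining 4 libraries, so fits with read layout as a term, in which the effect rests on pruned replicate 1, are given beside some results. In bulk roots, fewer cells of a type and less RNA per cell cannot be told apart. None of the 19538 identifiers matched the RefSeq gene table at hand (0 matched), so neither the root label nor further genes of the pathway could be checked by annotation.

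Most of the 9 measured genes were lower in pruned roots, but not all of them. Each enzyme of synthesis and acylation was read from 1 listed gene, and other genes of the same step were not looked at. Laccases other than the 3 listed were not looked at either. The list was chosen with earlier results of these data known. Of the 9 genes, 6 fell, 1 rose and 2 did not pass the test, which called a gene at 0.05 or less after Benjamini-Hochberg adjustment of the limma p across the table. The same test called 20.2% of all genes lower and 30.1% higher, 50.3% in either direction. This background depends on the scaling of the libraries, since quantile normalization called 25.6% of all genes lower and 25.7% higher, while the calls of the 9 genes stayed the same. With read layout as a term, 5 genes were called lower, as the laccase Bradi2g23370 did not pass (adjusted p = 0.164 by limma). The 6 genes that fell were the hydroxylase C3'H, the methyltransferase COMT6, the acyltransferase PMT1 and the 3 laccases. The gene that rose was the reductase CCR1, and the hydroxylases C4H and F5H did not pass. By at least 2-fold change, 2 of the 9 genes were DEGs (differentially expressed genes), C3'H and the laccase Bradi1g66720, both lower, and none was a higher DEG (0 of 9). Of all genes, 1.72% were lower DEGs, 2.54% higher DEGs and 4.26% DEGs in either direction. At a threshold of 1.5-fold the laccase Bradi1g74320 joined them, giving 3 lower DEGs and 0 higher, against 4.78% and 8.31% of all genes. The median log2 fold change of pruned over intact roots was -0.45 for the 9 genes and 0.04 for all genes. All 3 pruned libraries lay below all intact libraries for the 6 genes that fell, as for 22.7% of all genes, and above them for CCR1, as for 33.4% of all genes. In either direction the groups did not overlap for 56% of all genes. The counts of lower genes, lower DEGs and genes without overlap hold Bradi1g66720, which entered the table only through its intact libraries. Those counts are thus not independent of how genes entered the table.

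**Figure D1:**
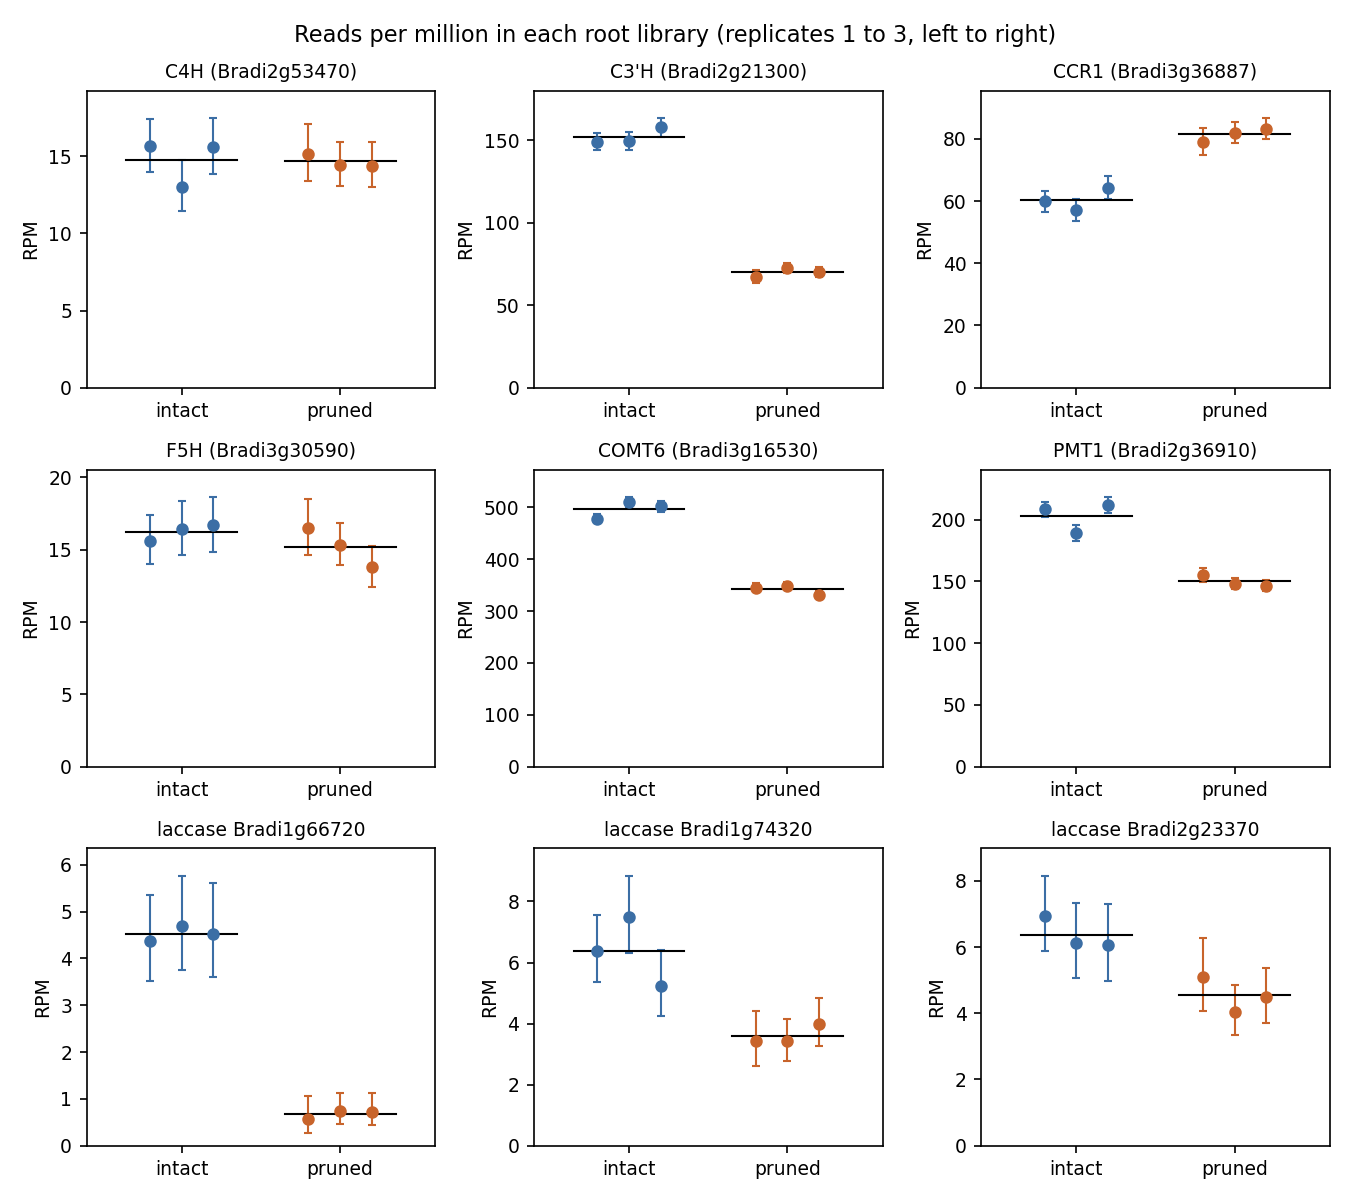
RPM (linear axis from 0) of the 9 measured genes in each library, intact in blue and pruned in orange, with replicates 1 to 3 from left to right. Bars are exact 95% Poisson intervals of the read count, which cover counting error only, and black lines are group means. The groups overlap only for C4H and F5H.

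Early in the pathway, cinnamate 4-hydroxylase (C4H, Bradi2g53470) turns cinnamate, which is made by an enzyme not on the list, into p-coumarate. It had 15.6, 13.0 and 15.6 RPM in intact replicates 1, 2 and 3, and 15.2, 14.5 and 14.4 RPM in pruned replicates 1, 2 and 3. The pruned libraries thus lay inside the range of the intact ones. The group means were 14.8 ± 1.49 RPM in intact and 14.7 ± 0.422 RPM in pruned roots (SD, n = 3 each), and limma gave an adjusted p of 0.980. The 95% interval of the fold change ran from 0.883 to 1.13, which bounds the size of a change that these libraries leave possible.

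The next hydroxylase, C3'H (Bradi2g21300), adds the second ring hydroxyl to the shikimate ester of p-coumarate and opens the way to guaiacyl and syringyl units. Its level was 149, 149.6 and 158 RPM in the 3 intact libraries and 67.1, 72.3 and 70.1 RPM in the 3 pruned libraries. The groups were far apart, and the libraries of each group differed little. The mean fell from 152 ± 4.95 to 69.8 ± 2.60 RPM (SD, n = 3 each), which is 54.1% lower. The log2 fold change was -1.12 with a standard error of 0.05 and an adjusted p of 2.95e-15 by limma. For the same change, limma without the trend of variance with level gave an adjusted p of 1.43e-05. Of all 19538 genes, 1.35% had a larger fall. At least 1160 reads stand behind the value of C3'H in each library, and with read layout as a term the log2 fold change was -1.17.

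Cinnamoyl-CoA reductase (CCR1, Bradi3g36887) makes the aldehydes from the CoA esters, the first step that is committed to monolignols. It was the only one of the 9 genes that passed the test in the upward direction. Intact libraries had 59.9, 57.1 and 64.4 RPM and pruned libraries 79.1, 82.0 and 83.3 RPM, without overlap. The mean rose from 60.4 ± 3.66 to 81.5 ± 2.16 RPM (SD, n = 3 each), with a log2 fold change of 0.43, a standard error of 0.05 and an adjusted p of 3.93e-07 by limma. This is 34.8% above intact roots by the ratio of means and below the 2-fold threshold of a DEG. The rise of CCR1 kept its sign under median-ratio scaling (0.38) and quantile normalization (0.38) of the libraries.

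The syringyl branch holds F5H (Bradi3g30590), which adds the ring hydroxyl that syringyl units need, and COMT6 (Bradi3g16530), a caffeic acid O-methyltransferase that methylates it. F5H had 15.6, 16.4 and 16.7 RPM in intact and 16.5, 15.3 and 13.8 RPM in pruned libraries. The groups overlapped, since pruned replicate 1 lay above intact replicates 1 and 2. For F5H, limma gave a log2 fold change of -0.096 with an adjusted p of 0.348, and a 95% interval of the fold change from 0.832 to 1.05. COMT6 had 478, 511 and 502 RPM in intact and 345, 349 and 332 RPM in pruned libraries, and the groups did not overlap. Its mean fell from 497 ± 16.7 to 342 ± 9.12 RPM (SD, n = 3 each), which is 31.2% lower. The log2 fold change of COMT6 was -0.54 with a standard error of 0.04 and an adjusted p of 2.77e-10 by limma.

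PMT1 (Bradi2g36910) is the p-coumaroyl-CoA transferase that acylates monolignols in grasses. Its intact libraries had 208, 189 and 212 RPM and its pruned libraries 155, 148 and 146 RPM. All pruned libraries were below all intact ones, and the mean was 203 ± 12.2 in intact and 149.9 ± 4.61 RPM in pruned roots (SD, n = 3 each). The fall was 26.2% by the ratio of means, with a log2 fold change of -0.44, a standard error of 0.05 and an adjusted p of 7.15e-08 by limma. With read layout as a term the log2 fold change of PMT1 was -0.39.

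**Figure D2:**
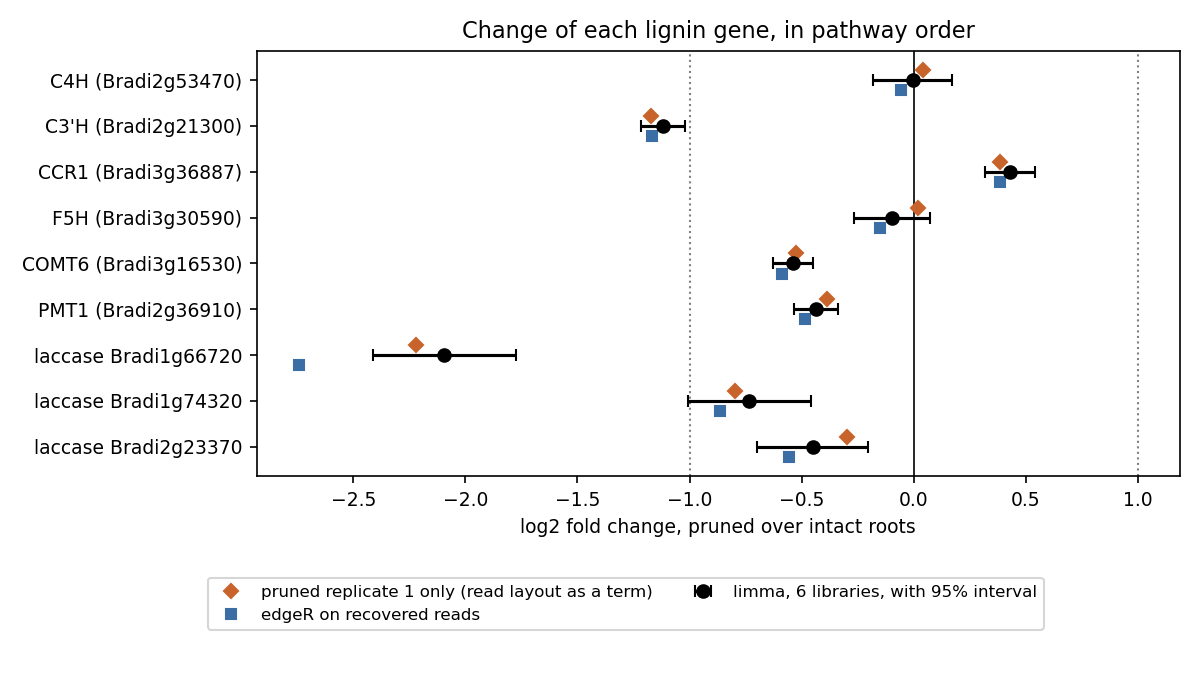
Log2 fold change of pruned over intact roots for each gene, in pathway order from top to bottom. Black points are limma values with 95% intervals, orange diamonds rest on pruned replicate 1 only, blue squares are edgeR values on the recovered reads, and dotted lines mark 2-fold change. The intervals of C4H and F5H include 0, and the intervals of C3'H and laccase Bradi1g66720 lie wholly below -1.

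Laccases are copper oxidases of the cell wall that oxidise monolignols without peroxide. All 3 listed laccases passed the test downward in the main fit, and Bradi1g66720 fell most. The falls of the other 2 were not told apart, since their ratio overlapped between the groups. With read layout as a term, where the effect rests on pruned replicate 1, the log2 fold change of Bradi2g23370 was -0.30. Bradi1g66720 had 4.37, 4.68 and 4.52 RPM in the intact libraries and 0.579, 0.739 and 0.716 RPM in the pruned libraries. The counts behind these values were 82 to 93 reads in intact and 10 to 21 reads in pruned libraries. Even the exact 95% Poisson limits did not meet, with 1.13 RPM as the highest upper limit in pruned and 3.53 RPM as the lowest lower limit in intact libraries. Such intervals cover counting error only.

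The mean of Bradi1g66720 fell from 4.52 ± 0.158 to 0.678 ± 0.0867 RPM (SD, n = 3 each), which is 6.67-fold lower by the ratio of means. Its log2 fold change on log2(RPM + 0.5) was -2.09 with a standard error of 0.15 and an adjusted p of 6.91e-11 by limma, and 0.174% of all 19538 genes had a larger fall. The pseudocount understates this fall, since edgeR gave -2.74 on the recovered reads. Every gene of the table had at least 1 RPM in at least 3 libraries, which Bradi1g66720 met only through its intact libraries. Its rank among all genes and its DEG call are therefore not independent of how genes entered the table. The same holds for its fall, for the lack of overlap between its groups, and for sums, shares and ratios that hold it.

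The laccase Bradi1g74320 had 6.39, 7.50 and 5.23 RPM in intact and 3.41, 3.41 and 3.997 RPM in pruned libraries. The groups did not overlap, although the intact libraries spread widely, with a coefficient of variation of 17.8%. Its mean fell from 6.38 ± 1.13 to 3.61 ± 0.337 RPM (SD, n = 3 each), a log2 fold change of -0.73 with a standard error of 0.13 and an adjusted p of 6.46e-05 by limma. It had 59 to 141 reads per library.

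For the third laccase, Bradi2g23370, the values were 6.95, 6.12 and 6.06 RPM in intact and 5.09, 4.05 and 4.49 RPM in pruned libraries. The mean fell from 6.38 ± 0.498 to 4.54 ± 0.525 RPM (SD, n = 3 each), and the groups did not overlap. The log2 fold change was -0.45 with a standard error of 0.12 and an adjusted p of 0.00298 by limma. Pruned replicate 1 was the highest of the pruned libraries, and with read layout as a term the fall of Bradi2g23370 was -0.30 with an adjusted p of 0.164 by limma. Its lowest adjusted p under an alternative setting was 0.000229 and its highest 0.164. In that fit the effect of pruning rests on pruned replicate 1, the only paired-end pruned library, and the part of read layout in the result was not tested further.

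**Figure D3:**
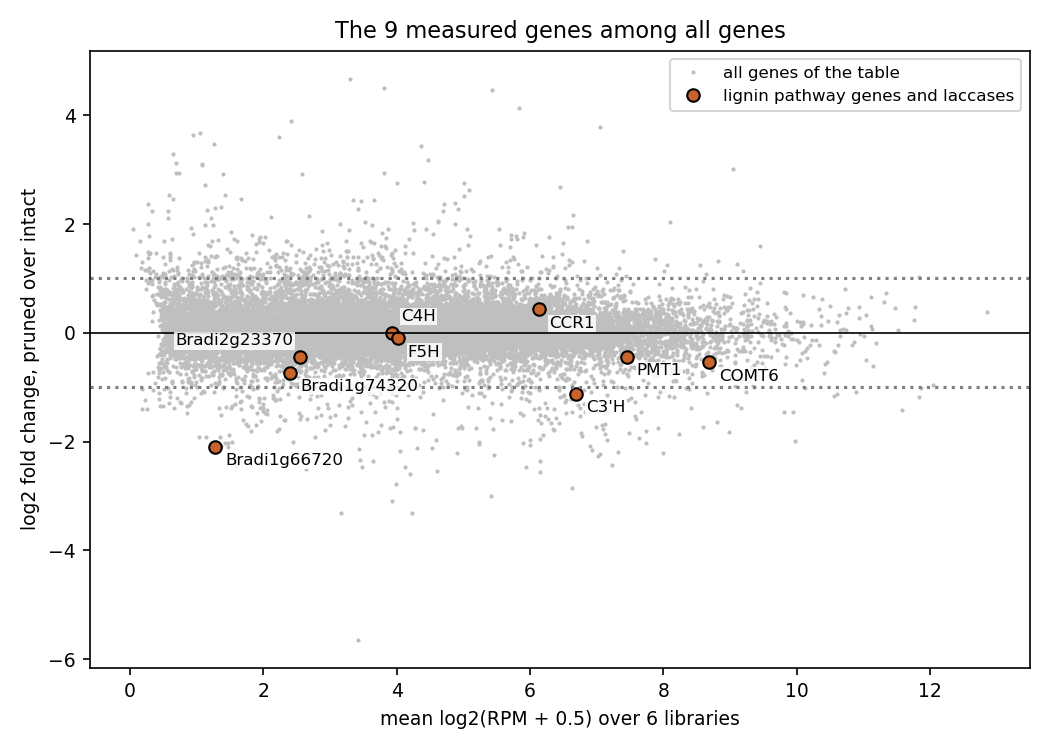
Log2 fold change of pruned over intact roots (vertical axis) against the mean log2(RPM + 0.5) of 6 libraries (horizontal axis) for all 19538 genes in grey and the 9 lignin genes in orange. Dotted lines mark 2-fold change. Laccase Bradi1g66720 stands at the lower edge of the genes of its level, and C4H and F5H lie in the middle of the cloud.

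Summed over the 3 listed laccases, which need not be all laccases of the root, the level was 17.3 ± 1.30 RPM in intact and 8.83 ± 0.549 RPM in pruned roots (SD, n = 3 each). The makeup of this sum differed as well. Bradi1g66720 gave 24.7%, 25.6% and 28.6% of the reads of these 3 laccases in the intact libraries and 6.37%, 9.01% and 7.79% in the pruned libraries. Its exact 95% binomial intervals reached down to 20.4% in intact and up to 13.4% in pruned libraries, and these intervals did not meet. The share of Bradi2g23370 was 37.0 ± 3.13% in intact and 51.4 ± 4.04% in pruned roots (SD, n = 3 each), and that of Bradi1g74320 was 36.7 ± 3.98% and 40.9 ± 3.00%, with overlapping groups. The shares of the 3 laccases sum to 100%, so they do not vary independently. Bradi1g66720 entered the table only through its intact libraries. The sum and the shares are therefore not independent of how genes entered the table, and the intervals cover counting error only.

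**Figure D4:**
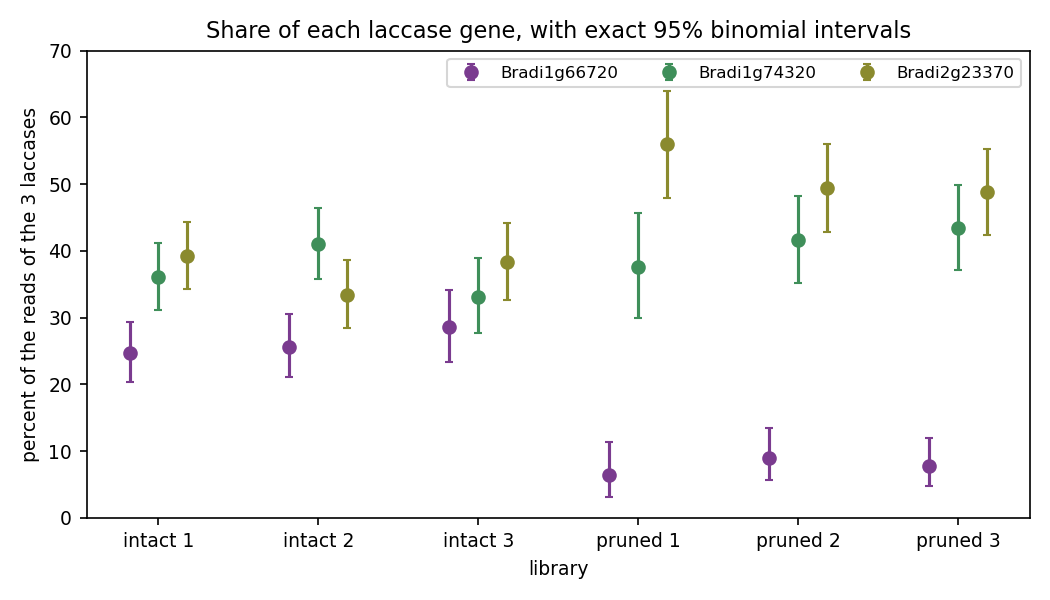
Percent of the reads of the 3 laccases that came from each of them, by library, with exact 95% binomial intervals (counting error only). The share of Bradi1g66720 is 24.7% to 28.6% in intact and 6.37% to 9.01% in pruned libraries.

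The unequal changes of the listed genes were also expressed as ratios of 2 genes within a library. The pairs were chosen with earlier results of these data known, so the ratios restate the changes above and do not test them anew. Such a ratio does not depend on the scaling of the library, and the length of the genes cancels when the same ratio is compared between groups. C3'H over C4H was 9.53, 11.5 and 10.1 in intact and 4.43, 5.00 and 4.87 in pruned libraries. The message of the listed C3'H gene was thus lower relative to that of the listed C4H gene in each pruned library. Other genes of these steps were not looked at. CCR1 over C3'H was 0.402, 0.382 and 0.408 in intact and 1.18, 1.13 and 1.19 in pruned libraries, a 2.94-fold higher mean with pruning. Of the 4 ratios between enzymes of synthesis and acylation, this one differed most between the groups. That follows from the pair taken, since CCR1 was the only gene called higher and C3'H fell most among these enzymes.

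Within the syringyl branch, COMT6 over F5H was 30.6 ± 0.495 in intact and 22.6 ± 1.57 in pruned roots (mean and SD of 3 libraries each), without overlap. The ratio of COMT6 to PMT1 was 2.46 ± 0.215 in intact and 2.28 ± 0.0671 in pruned roots and overlapped between the groups. The falls of COMT6 and PMT1 were therefore not told apart, which does not show that they were equal. Among the laccases, Bradi1g66720 over Bradi1g74320 was 0.724 ± 0.124 in intact and 0.188 ± 0.0248 in pruned roots, without overlap. Bradi1g74320 over Bradi2g23370 was 1.003 ± 0.195 and 0.802 ± 0.116, with overlap.

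With 3 libraries in each group, 0.1 is the smallest p that an exact two-sided permutation test allows. It gave 0.1 for each of the 7 genes that passed limma, for the 4 ratios without overlap, for the laccase sum and for the shares of Bradi1g66720 and Bradi2g23370. The 3 other ratios and shares had an exact p of 0.2. Over this family of 10 ratios, shares and sums the Benjamini-Hochberg values of the exact test were 0.143 and 0.2.

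**Figure D5:**
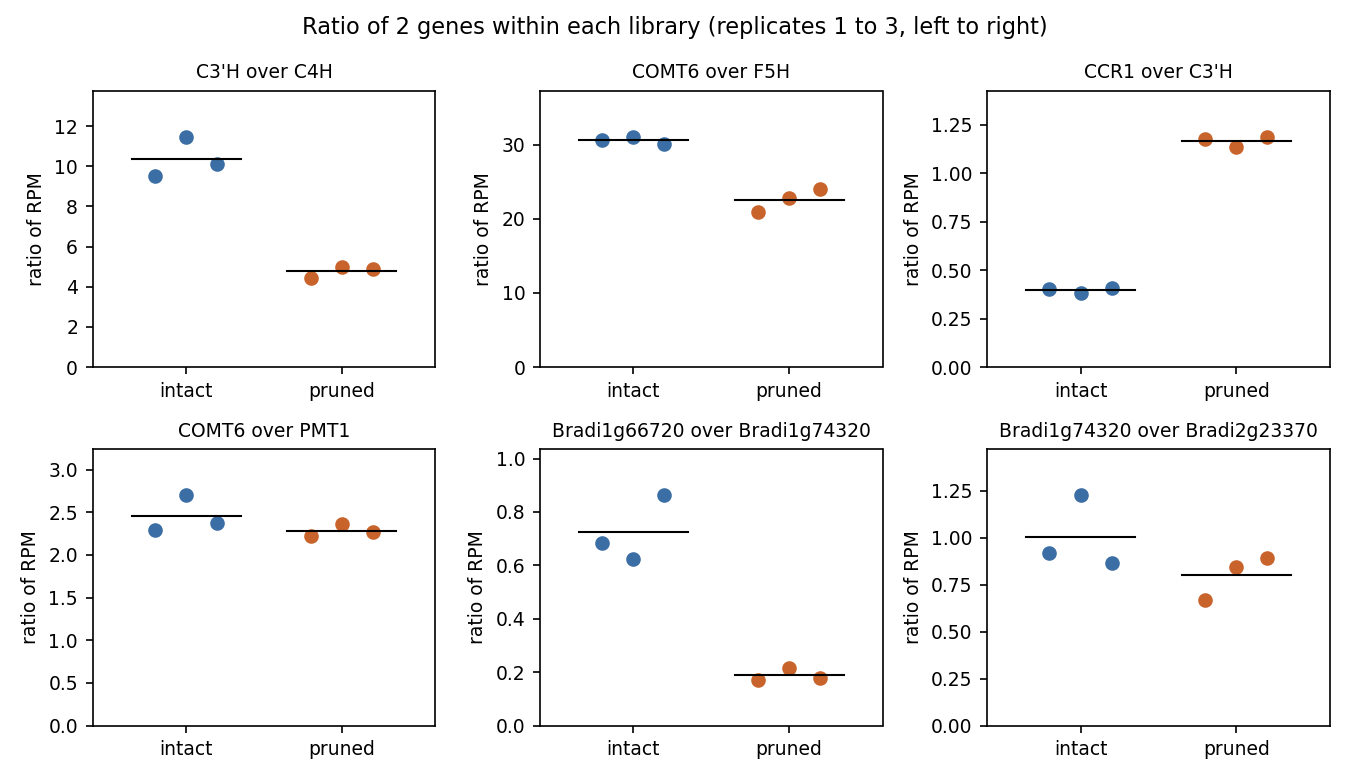
Ratio of the RPM of 2 genes within each library (linear axes from 0), intact in blue and pruned in orange, with group means as black lines. CCR1 over C3'H lies between 0.382 and 0.408 in intact and between 1.13 and 1.19 in pruned libraries, and COMT6 over PMT1 overlaps between the groups.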

How the data were processed

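Illumina reads were trimmed (SolexaQA, cutadapt) and aligned with Tophat by the authors, who counted reads with a unique position on each gene. HTSeq is also named in the submitters' processing notes. A strand setting is not given in the sources used here, and reads of near-identical or overlapping genes were not separable. The deposited values are RPM, scaled to the reads counted on 19538 genes. Dividing a library's values by the worth of 1 read gave back the reads (whole to 0.01 of a read for 100% of values). Pruned and intact roots, 3 libraries each, were tested on log2(RPM + 0.5) with limma 3.58.1 under R 4.3.3 (eBayes with trend, two-sided). P-values were adjusted after Benjamini-Hochberg across all genes, and a filter at 0.5 RPM in 3 libraries removed none. A DEG combined an adjusted p up to 0.05 with a fold change of 2 or more. Alternatives included edgeR 4.0.16 and DESeq2 1.42.0 on the recovered counts. Scripts were tested on simulated data, and exact tests and intervals came from scipy 1.17.1. Replicates were separate biological samples as the study states. All 9 measured genes are named. The genes and ratios were chosen with earlier results of these data known. The identifiers matched no entry of the RefSeq gene table, and the annotations printed with the study were not used, so the planned lists of further pathway genes and tissue markers, and levels per length, were not made.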

Additional observations from a re-analysis of the deposited data

How the results depend on the processing

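No filter and a filter at 1 RPM tested the same genes and changed nothing. The other 16 alternative settings were pseudocounts of 0.1 and 1, median-ratio and quantile scaling, limma without trend, edgeR's 2 tests, DESeq2, the replicate block, read layout as a term and each of the 6 libraries left out. Of 144 values of the 9 lignin genes, 137 kept their direction and their call. With read layout as a term, laccase Bradi2g23370 lost its call (-0.30, adjusted p = 0.164 by limma), so 5 genes were lower in place of 6, while C4H and F5H, which did not pass, changed sign to 0.043 and 0.021. C4H also changed sign to 0.040 without intact replicate 1, 0.038 without intact replicate 3, 0.0069 without pruned replicate 2 and 0.0096 without pruned replicate 3, and its values with 1 library left out ran from -0.087 to 0.040. The cause was not tested. A threshold of 1.5-fold added laccase Bradi1g74320 to the lower DEGs, giving 3 in place of 2. In the paired-end libraries only, a comparison added after the data were seen, the log2 change was -0.56 for Bradi1g74320 over Bradi2g23370 and -0.55 for COMT6 over F5H, where all libraries gave -0.32 and -0.44. The first of these ratios was -0.16 without intact replicate 2 and -0.19 without pruned replicate 1, and the log2 change of COMT6 over PMT1, -0.10 with all libraries, was -0.031 without intact replicate 2. Same-numbered libraries deviated from their group means with correlations of -0.026, 0.203 and 0.084, so the numbers were not taken to pair the libraries, and whether same-numbered libraries came from the same boxes is not given in the sources used here. With the replicate block 6 lignin genes were lower and 1 higher, and of all genes 4091 were lower and 6050 higher, against 3941 and 5889 without it. The excess of higher calls was small or absent under other scalings, as 4810 lower and 5103 higher for median-ratio scaling, 5002 and 5012 for quantile normalization, 4857 and 5147 for edgeR's quasi-likelihood test, and 4125 and 4475 for DESeq2. Depth limits Bradi1g66720 most, with 10 to 21 reads in pruned libraries.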
